A study of Homo sapiens with 15 samples.

Results

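The 47 genes described here encode inflammatory cytokines and chemokines, the NF-κB factors and some of their targets, the regulators of the interferon response, interferon-stimulated proteins and the machinery of antigen presentation. They were taken by symbol from the 60675 genes of the deposited tables, and each symbol matched 1 row. By role they comprised 12 cytokines and chemokines, 9 NF-κB factors and targets, 5 interferon regulators, 15 interferon-stimulated genes and 6 genes of antigen presentation. The cells were H9, an established human embryonic stem cell line, made to differentiate toward bone-forming cells and lysed on day 7. Each of 5 groups held 3 RNA-seq libraries, 15 in all. The control group (UNT) received the vehicle, DMSO at 0.1%. Fine particulate matter (FPM) was given at 0.00062 µg/mL (FPM IC25) or 1.4 µg/mL (FPM IC50). A standard reference material from NIST (SRM) was given at 0.003 µg/mL (SRM IC25) or 5.9 µg/mL (SRM IC50). IC25 and IC50 are the labels' names for inhibitory concentrations based on protein. Particles were present from day 0. All groups, the control included, grew in serum medium without added lineage factors until day 5, after which vitamin D3, ascorbic acid and β-glycerophosphate were added. All libraries came from 1 cell line. Whether replicates were grown as separate cultures is not in the labels, so a p-value reflects no more than how these libraries vary, which can be technical.

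As background, NF-κB is a family of dimeric transcription factors that inhibitor proteins hold in the cytoplasm until cytokine or pathogen receptors release them; the factors then switch on cytokines, adhesion molecules and their own inhibitors. Interferons act through a separate route, in which JAK kinases activate a complex that holds STAT2 and IRF9 and binds a response element in the promoters of antiviral genes. Interferon also raises the proteasome subunits, peptide transporters and HLA proteins that show peptides to T cells. Pluripotent stem cells are known for a weak interferon response, and the competence to respond is gained during differentiation. Airborne particles are known to raise inflammatory cytokines in airway cells and macrophages, which makes these genes a natural question in a particle exposure of differentiating cells.

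Total counts were between 9.34 and 58.2 M (mega) per library, so that 3 counts, the floor used here, were worth between 0.0504 and 0.309 CPM (counts per M counted reads, with TMM library factors); these floors cover counting error alone, because PCR copies were not marked by molecular identifiers. Antisense genes took 0.942 to 1.5% of the counts in the 6 FPM libraries and 0.274 to 0.319% in the other libraries, so the FPM libraries stood apart in a class of reads that depends on strand. Exons of 16 of the 47 genes overlap exons of a gene on the opposite strand, TNFAIP3, ICAM1, ISG15 and PSMB8 among them, and their values are uncertain because the strand setting of the counting is not given in the sources used here. Markers of other cell types moved in the exposures, with the most calls at SRM IC50. The 15 amnion and trophoblast markers summed to 479 to 544 CPM there and 2047 to 2369 CPM in UNT, and all 14 that were tested were lower. The 9 simple epithelium markers summed to 2946 to 3964 against 6598 to 8962 CPM, with 9 lower. The 10 markers of pluripotent cells summed to 2707 to 3136 against 1696 to 1818 CPM, with 8 higher. The 7 endothelial markers summed to 93.7 to 132 against 43.3 to 63.1 CPM, with 4 higher and 1 lower of 5 tested, and PECAM1 and EMCN too low to test. The 10 mesenchyme markers summed to 2043 to 2202 against 2055 to 2358 CPM, with 2 higher and 4 lower. Of 9 immune cell markers, CSF1R was tested and was lower at SRM IC50; the list summed to 2.54 to 2.81 against 5.43 to 6.57 CPM. That difference was CSF1R alone, at 1.55 ± 0.130 against 5.16 ± 0.704 CPM; the other 8 together averaged 1.12 CPM at SRM IC50 and 0.717 CPM in UNT. CD3E and TYROBP never reached 3 counts, and the pan-leukocyte gene PTPRC averaged 0.0399 CPM in UNT and 0.0689 CPM at SRM IC50. In the other exposures the pluripotent markers summed to 1299 to 1378 CPM at SRM IC25, 1295 to 1564 CPM at FPM IC50 and 1244 to 1284 CPM at FPM IC25, all under UNT, with 3, 3 and 4 of 10 lower. At FPM IC50, 4 amnion and trophoblast markers were higher, and at FPM IC25, 4 mesenchyme markers and CSF1R were higher. The part of these markers in the results below was not tested. In bulk RNA, fewer cells of a type and less RNA per cell cannot be told apart.

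Promoter windows of 5 genes are shown because they carry the letters through which NF-κB and the interferon complexes are known to act, and because they include genes that rose, fell or did not pass the test at SRM IC50. Each window holds the 250 bases before the RefSeq start (GRCh38.p14), and 39 of the 47 genes had one. CCL2, LIF, IL18, RELB, IRF3, IRF7, IFIT2 and IFITM2 had no entry. Both strands were searched for GGGNNNTTC (a κB core), TTCNNTTTC (the core of the interferon-stimulated response element) and TTCNNNGAA (a STAT site), in which N is any base. Matches are in capitals, and overlapping matches run together.
TNFAIP3 (chr6:137867009-137867258, plus strand, 2 κB matches): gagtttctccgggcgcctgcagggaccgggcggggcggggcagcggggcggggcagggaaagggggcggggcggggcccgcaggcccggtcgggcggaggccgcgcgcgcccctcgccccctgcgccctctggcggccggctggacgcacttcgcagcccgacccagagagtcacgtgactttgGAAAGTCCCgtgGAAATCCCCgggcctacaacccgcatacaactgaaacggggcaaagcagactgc
ICAM1 (chr19:10270870-10271119, plus strand, 1 STAT match): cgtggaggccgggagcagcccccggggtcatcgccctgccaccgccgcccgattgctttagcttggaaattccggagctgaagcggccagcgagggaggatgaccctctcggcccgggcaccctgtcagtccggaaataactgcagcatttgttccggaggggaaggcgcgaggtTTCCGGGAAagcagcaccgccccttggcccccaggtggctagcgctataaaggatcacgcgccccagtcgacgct
ISG15 (chr1:1013247-1013496, plus strand, 3 response element matches): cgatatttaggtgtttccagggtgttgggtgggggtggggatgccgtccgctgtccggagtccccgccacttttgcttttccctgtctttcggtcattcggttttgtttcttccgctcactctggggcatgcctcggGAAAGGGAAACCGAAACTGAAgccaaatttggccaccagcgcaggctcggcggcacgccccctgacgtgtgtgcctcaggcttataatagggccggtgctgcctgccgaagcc
IFIT1 (chr10:89392373-89392622, plus strand, 2 response element matches): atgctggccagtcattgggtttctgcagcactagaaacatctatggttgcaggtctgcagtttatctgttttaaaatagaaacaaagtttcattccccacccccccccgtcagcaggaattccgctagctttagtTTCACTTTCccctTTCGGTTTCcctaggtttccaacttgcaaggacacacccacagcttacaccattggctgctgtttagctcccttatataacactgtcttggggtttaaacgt
BST2 (chr19:17405631-17405880, minus strand, 2 response element, 1 κB and 2 STAT matches): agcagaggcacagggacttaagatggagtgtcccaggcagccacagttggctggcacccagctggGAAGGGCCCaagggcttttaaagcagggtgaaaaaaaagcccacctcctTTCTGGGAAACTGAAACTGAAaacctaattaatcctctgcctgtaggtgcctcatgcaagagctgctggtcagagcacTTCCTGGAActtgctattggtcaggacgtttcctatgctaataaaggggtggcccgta

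The response element core lay in the windows of 18 of the 39 genes and in 7.1% of 27305 promoters of the same length. The κB core lay in 14 of the 39 and in 13.2% of all promoters, and the STAT letters lay in 9 of the 39 and in 6.8%. In the BST2 window 1 STAT match and both response element matches share bases. A match is a description of letters, not a binding site. Sites with other letters are not marked, so a window without a match can still hold one. The stretch ggaaattcc in the ICAM1 window, for instance, is unmarked because the κB search asks for GGG.

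The vehicle control expressed these genes over a wide range. Levels are compared between genes per length, as FPKM (fragments scaled to gene length and library total), given as mean ± SD of 3 libraries. In UNT 12 genes averaged at least 10 FPKM, 11 lay between 1 and 10, and 24 lay under 1. The highest were HLA-C, a class I heavy chain that carries peptides to the surface, at 92.1 ± 13.2 FPKM, and IFITM3, a membrane protein that blocks virus entry, at 85.6 ± 8.65 FPKM; the spreads of these neighbours overlap. BST2, which tethers budding viruses to the membrane, followed at 40.2 ± 1.91 FPKM and IFITM2 at 26.5 ± 1.72 FPKM, neither overlapping its neighbours. CCL2, the monocyte-attracting chemokine, averaged 18 ± 4.54 FPKM, IRF3, the factor that starts interferon transcription, 17.5 ± 1.28 FPKM, and HLA-B 17.1 ± 2.34 FPKM; these levels did not differ beyond their spread. B2M, the light chain shared by class I molecules, was at 12.9 ± 1.76 FPKM over a listed length of 6089 bases. HLA-B and HLA-C are near-identical to each other and to other class I genes, the annotated HLA-B model overlaps part of HLA-C on the same strand, and IFITM1, IFITM2 and IFITM3, and CXCL1, CXCL2 and CXCL3, are families of close copies, so the split of reads among them is uncertain.

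**Figure D1:**
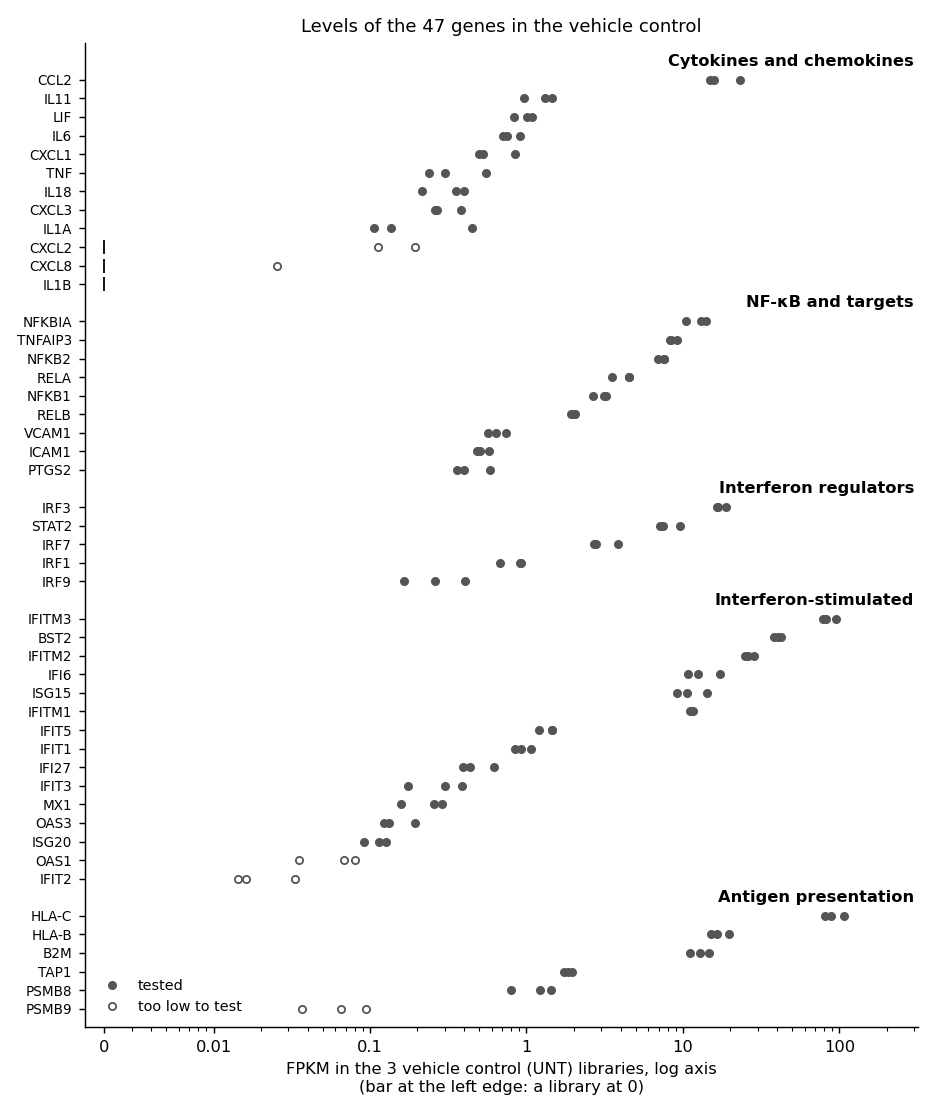
FPKM (log axis) of the 47 genes in the 3 UNT libraries, grouped by role and ordered by mean; open circles are the 6 genes too low to test, and a bar at the left edge marks a library at 0. HLA-C and IFITM3 lie near 100 FPKM, while most cytokines lie under 1 FPKM.

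The genes too low to test numbered 6. They did not pass the count filter of the test and are taken as too low to measure: CXCL8, IL1B and CXCL2 among the cytokines, IFIT2 and OAS1 among the interferon-stimulated genes, and PSMB9. CXCL8, the main neutrophil attractant, never exceeded 5 counts and reached 3 counts in 3 of 15 libraries. IL1B, a central fever-inducing cytokine, had 2 counts over all 15 libraries. CXCL2 had 66 counts and IFIT2 had 19 over all libraries, and OAS1, an enzyme that senses double-stranded RNA, had 75. PSMB9, an interferon-induced proteasome subunit, had 73 counts in all. Its levels were 0.610, 0.458 and 0.528 CPM in the SRM IC50 libraries and 0.199, 0.117 and 0.305 CPM in UNT, so the groups did not overlap. Its counts were 6 to 18 in a library at SRM IC50 and 2 to 5 in UNT. Tested without the filter, PSMB9 had an edgeR adjusted p of 0.23 against UNT, 0.021 against SRM IC25 and 0.0096 against FPM IC50. With limma on unfiltered log2(FPKM + 1), PSMB9 was called in each of these comparisons. DESeq2 called it against SRM IC25 and against FPM IC50. Among the tested cytokines only CCL2, IL11 and LIF exceeded 3 CPM in the mean of UNT; IL6 averaged 1.69 ± 0.185 CPM and TNF 0.634 ± 0.303 CPM (SD, n = 3).

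At SRM IC50, 9 of the 41 tested genes passed the test against UNT, 6 higher and 3 lower; of all 19012 genes tested, 17.6% passed. A gene is called higher or lower where edgeR's quasi-likelihood test gave an adjusted p under 0.05 (Benjamini-Hochberg over all genes), and every adjusted p below is from that test unless another is named. The genes that rose were IL1A, ICAM1, ISG15, BST2, IFITM1 and PSMB8, and those that fell were TNFAIP3, CCL2 and STAT2. The median log2 fold change of the 41 genes was 0.00, and that of all genes was 0.00, with 21 fits above zero and 20 below. Genes that rose and genes that fell were both found among the cytokines and chemokines and among the NF-κB genes.

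Among the NF-κB genes, TNFAIP3 had the lowest adjusted p of the 41. It encodes A20, an enzyme that edits ubiquitin chains to shut NF-κB signalling off, and it lies at chr6:137867188-137883312 on the plus strand. Its level was 46.1, 44.1 and 44.1 CPM in UNT and 15.0, 13.4 and 12.6 CPM at SRM IC50, so the 3 exposed libraries lay far under every other library of the study. TNFAIP3 fell 3.26-fold, a log2 fold change of -1.70 ± 0.11 with an adjusted p of 5.0e-08, and the call held with each of the 6 libraries left out in turn. Its exons overlap those of AL357060.1 on the other strand. ICAM1 (chr19:10270835-10286615, plus strand), the adhesion molecule that leukocytes bind, moved the other way. It measured 2.14, 1.94 and 1.89 CPM in UNT and 4.07, 4.73 and 4.13 CPM at SRM IC50, with no overlap. Its rise was 1.11 ± 0.21 in log2 (± gives the SE of a log2 fold change), with an adjusted p of 0.0013, and the call also held without any 1 of the 6 libraries. NFKBIA, the inhibitor that holds NF-κB in the cytoplasm, was at 24.9, 32.1 and 35.4 CPM in UNT and 20.4, 19.3 and 28.7 CPM at SRM IC50. These NFKBIA values overlap, and its log2 fold change was -0.45 ± 0.17 (adjusted p = 0.085). Without the low-count filter, at the same fold, NFKBIA was called (adjusted p = 0.0071), as it was without UNT replicate 1 (0.028) or SRM IC50 replicate 3 (0.012). The factor RELA was at 23.6 ± 2.88 CPM in UNT and 23.5 ± 3.20 CPM at SRM IC50 (log2 fold change 0.00 ± 0.12). NFKB1, NFKB2 and RELB, the other family members in the list, did not pass either, with log2 fold changes of -0.22, -0.12 and 0.28. The adhesion molecule VCAM1 (-0.45 ± 0.18) and PTGS2, the inducible cyclooxygenase (0.02 ± 0.26), did not pass. The windows above show matches to the κB letters before TNFAIP3, which fell, and NFKBIA has 3 such matches in its window. The lack of a match before ICAM1, which rose, does not exclude a κB site there.

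Among cytokines and chemokines 1 gene rose and 1 fell of 9 tested. CCL2 (chr17:34255218-34257203, plus strand) measured 29.6, 32.5 and 48.5 CPM in UNT and 16, 18.2 and 20.9 CPM at SRM IC50, and the groups did not overlap. CCL2 fell with a log2 fold change of -1.01 ± 0.22 and an adjusted p of 0.0035, a call that held without any 1 of the 6 libraries. IL1A (chr2:112773915-112784590, minus strand), an alarm cytokine released by damaged cells, was at 0.945, 0.235 and 0.305 CPM in UNT and 1.70, 1.58 and 1.41 CPM at SRM IC50. All SRM IC50 values of IL1A were above the highest of UNT, but its counts never exceeded 50 in a library. The rise of IL1A was 1.61 ± 0.42 in log2, with an adjusted p of 0.013. The IL1A call was lost without UNT replicate 2, UNT replicate 3 or SRM IC50 replicate 1, where the adjusted p reached 0.067. IL6, the acute-phase cytokine, was at 1.89, 1.53 and 1.65 CPM in UNT and 1.08, 0.865 and 1.41 CPM at SRM IC50 (log2 fold change -0.64 ± 0.28, adjusted p = 0.15). TNF had -0.88 ± 0.42 and IL11 0.56 ± 0.20 (adjusted p = 0.18 and 0.069). IL11 was called with the replicate number as a block, without UNT replicate 3 and over genes without an opposite-strand gene within 5 kb. It was also called with limma on filtered log2(FPKM + 1) or log2(FPKM + 0.1). CXCL1, CXCL3, LIF and IL18 also did not pass.

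Of the 5 interferon regulators only STAT2 was called. STAT2 (chr12:56341597-56360155, minus strand), the subunit through which type I interferon signals, was at 58.7, 47.5 and 45.8 CPM in UNT and 41.2, 38.2 and 31.3 CPM at SRM IC50. Every exposed library lay under every control, and the log2 fold change of STAT2 was -0.45 ± 0.11, at an adjusted p of 0.010. Without UNT replicate 1, the highest control, the adjusted p was 0.056. It was 0.077 with the 2 groups alone, and 0.050 (0.0503, not passing) and 0.12 with limma on log2(FPKM + 1) with and without a filter. IRF3 was at 68.4 ± 6.44 CPM in UNT and 70.8 ± 10.7 CPM at SRM IC50 (0.05 ± 0.11), and IRF1, IRF7 and IRF9 had log2 fold changes between -0.35 and -0.09 that did not pass.

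Of 13 tested interferon-stimulated genes 3 rose and none fell at adjusted p under 0.05. BST2 (chr19:17402939-17405648, minus strand) was at 45.0, 44.6 and 49.8 CPM in UNT and 62.5, 71.8 and 93.4 CPM at SRM IC50. These BST2 groups did not overlap, and the log2 fold change was 0.70 ± 0.19 (adjusted p = 0.019). ISG15 (chr1:1001138-1014540, plus strand), a ubiquitin-like protein attached to others after interferon, was at 8.66, 10.4 and 14.2 CPM in UNT and 14.1, 15.6 and 28.3 CPM at SRM IC50. The lowest SRM IC50 library lay just under the highest control, and replicate 3 of SRM IC50 was far above the other two. ISG15 rose by 0.78 ± 0.24 in log2, with an adjusted p of 0.037. IFITM1 (chr11:313506-315272, plus strand) was at 11.9, 13 and 12.9 CPM in UNT and 18.4, 19.0 and 18 CPM at SRM IC50. The IFITM1 libraries were tight within each group and did not overlap, with a log2 fold change of 0.55 ± 0.15 (adjusted p = 0.015). These calls depended on single libraries. ISG15 and BST2 were each lost without UNT replicate 1, UNT replicate 2 or SRM IC50 replicate 3, with adjusted p up to 0.16 for ISG15 and 0.067 for BST2, and ISG15 also did not pass in the fit without the FPM libraries (0.079) or with the 2 groups alone (0.13). IFITM1 was lost without UNT replicate 1 or SRM IC50 replicate 2, with adjusted p up to 0.053. With limma on unfiltered log2(FPKM + 1), the adjusted p was 0.10 for ISG15, 0.090 for BST2 and 0.051 for IFITM1. The close copies IFITM3 and IFITM2 did not pass. The annotated IFITM2 model spans IFITM1 on the same strand, so reads of IFITM1 and IFITM2 may be mixed. IFITM3 was at 106, 116 and 135 CPM in UNT and 96.7, 112 and 133 CPM at SRM IC50 (-0.07 ± 0.13), and IFITM2 had 0.15 ± 0.12. The antiviral effector IFIT1 was at 4.23, 5.11 and 4.09 CPM in UNT and 4.17, 5.75 and 6.42 CPM at SRM IC50 (0.26 ± 0.19, adjusted p = 0.42). Response element letters stand in its window as in those of ISG15 and BST2. IFI6, a mitochondrial interferon-induced protein, was at 9.30, 11.2 and 15.8 CPM in UNT and 6.48, 7.48 and 13.5 CPM at SRM IC50 (-0.45 ± 0.26, adjusted p = 0.29). IFI6 was called without the low-count filter (adjusted p = 0.039) and without SRM IC50 replicate 3 (0.026). MX1, IFI27, IFIT3, IFIT5, ISG20 and OAS3, which are also interferon-stimulated, did not pass, and their log2 fold changes ran from -0.64 for OAS3 to 0.64 for ISG20.

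Of the antigen presentation genes, PSMB8 alone was called among 5 tested. PSMB8 (chr6:32840717-32844703, minus strand) is a proteasome subunit that replaces a standard one after interferon and changes which peptides are cut. It was at 1.59, 2.53 and 3.05 CPM in UNT and 4.58, 5.60 and 7.56 CPM at SRM IC50, with no overlap. The log2 fold change was 1.29 ± 0.27 (adjusted p = 0.0025), 2.44-fold, and held without any 1 of the 6 libraries. Its exons overlap those of PSMB9 and PSMB8-AS1 on the other strand, so the reads of both subunits may be mixed. HLA-B was at 45.6, 51.8 and 62.6 CPM in UNT and 59.5, 60.6 and 87.7 CPM at SRM IC50 (0.37 ± 0.16, adjusted p = 0.12), and was called without the low-count filter (adjusted p = 0.026). HLA-C was at 203, 231 and 282 CPM in UNT and 201, 189 and 269 CPM at SRM IC50 (-0.12 ± 0.15). B2M was at 67.8, 80.8 and 94.1 CPM against 64.4, 69.0 and 99.1 CPM (-0.07 ± 0.16). TAP1, which pumps peptides into the endoplasmic reticulum, was at 8.41, 9.34 and 8.35 CPM against 10.3, 9.42 and 12 CPM (0.27 ± 0.14, adjusted p = 0.21). For HLA-B, HLA-C and B2M the groups overlap, and replicate 3 was the highest library of both groups.

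**Figure D2:**
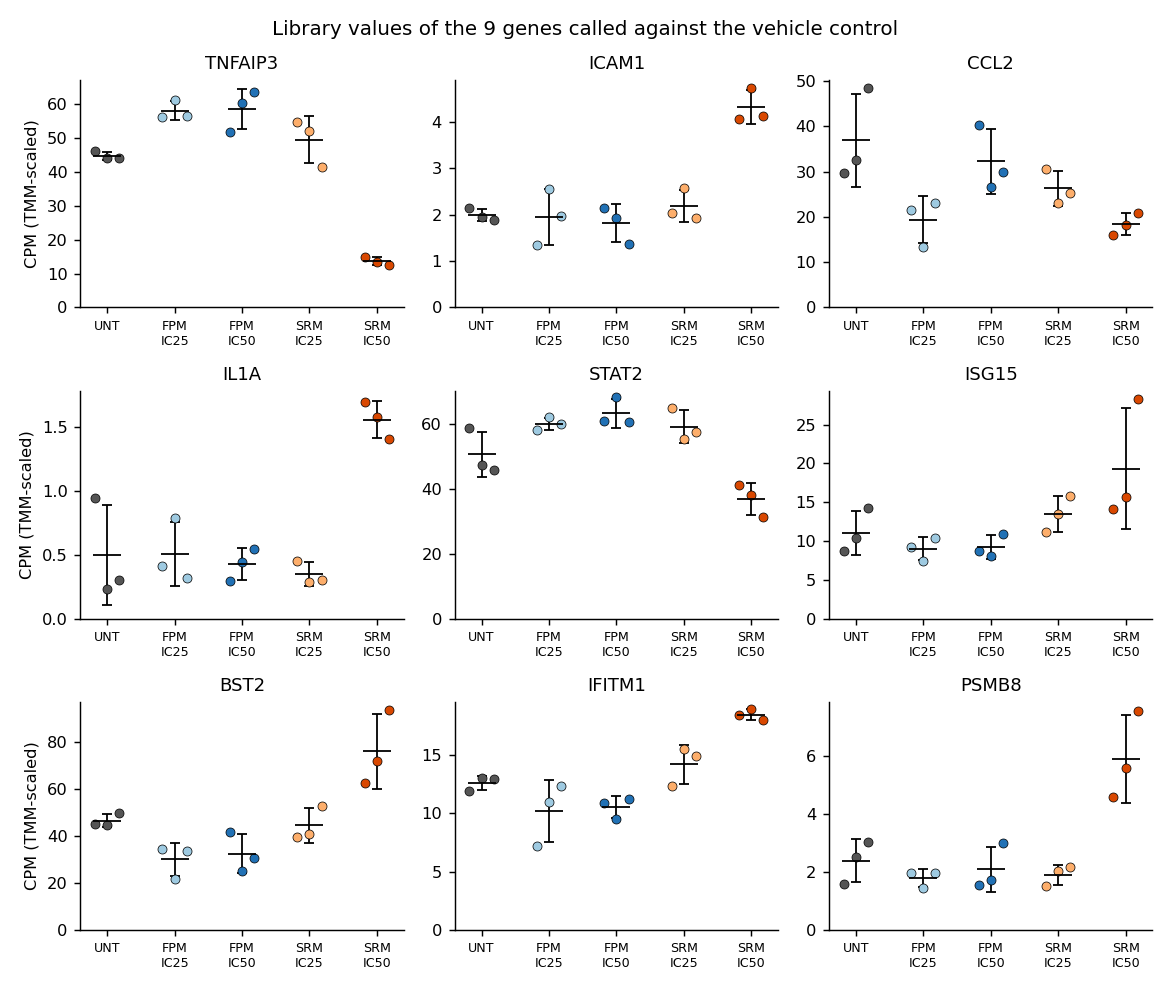
CPM of each library (points) with mean and SD (bars, n = 3) in the 5 groups, for the 9 genes called against UNT in any exposure; each panel has its own axis from 0. TNFAIP3 at SRM IC50 lies between 12.6 and 15.0 CPM, under all other libraries, and PSMB8, ICAM1 and IL1A at SRM IC50 lie above all other libraries.

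At SRM IC25 none of the 41 genes passed against UNT, where 4.37% of all genes did. That share was itself unsteady. The 831 genes behind it fell to 0 with the GC correction, with the 2 groups alone, without the FPM libraries, or without UNT replicate 2, SRM IC25 replicate 2 or SRM IC25 replicate 3. They fell to 2 without UNT replicate 3 and to 319 without SRM IC25 replicate 1, and DESeq2 called 1980. At an unadjusted p under 0.05 there were 5 genes, DESeq2 called 1 (RELA) and limma on log2 FPKM called 0. The lowest adjusted p belonged to RELA, at 24.6, 25.8 and 20.4 CPM in UNT and 29.7, 30.2 and 29.7 CPM at SRM IC25, which did not overlap (log2 fold change 0.34 ± 0.11, adjusted p = 0.097). TNFAIP3 was at 54.7, 52.1 and 41.6 CPM, around the UNT values (0.14 ± 0.11). CCL2 was at 30.7, 23.1 and 25.3 CPM, with 1 library inside the UNT range (-0.49 ± 0.21, adjusted p = 0.19). IFITM3 was at 129, 163 and 149 CPM (0.30 ± 0.13, adjusted p = 0.17). The median log2 fold change of the 41 genes was 0.10 and that of all genes 0.02.

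At FPM IC50 TNFAIP3 alone passed against UNT, or 1 of 41 genes, where 13.6% of all genes passed. That share was unsteady too: of the 4239 genes tested with no opposite-strand gene within 5 kb, 1 passed (0.0236%). TNFAIP3 was at 51.9, 60.5 and 63.5 CPM, all above the 3 controls, and its log2 fold change was 0.39 ± 0.11 (adjusted p = 0.019). Without UNT replicate 2, UNT replicate 3, FPM IC50 replicate 2 or FPM IC50 replicate 3 the adjusted p passed 0.05, up to 0.088. At FPM IC25, 3 of 41 genes passed, where 14.2% of all genes did. TNFAIP3 was at 56.3, 61.3 and 56.5 CPM, again above every control (0.37 ± 0.11, adjusted p = 0.024). CCL2 was at 21.5, 13.5 and 23.1 CPM, under every control, and fell by 0.93 (SE 0.22, adjusted p = 0.0065). BST2 was at 34.5, 21.8 and 33.6 CPM, also under every control, and fell by 0.64 (SE 0.20, adjusted p = 0.041). The FPM IC25 calls of TNFAIP3 were lost without UNT replicate 2, UNT replicate 3 or FPM IC25 replicate 2 (adjusted p up to 0.10). Those of BST2 were lost without any 1 control or FPM IC25 replicate 2 (up to 0.20), and the CCL2 call held in all 6. The CCL2 call was lost where only genes without an opposite-strand gene within 5 kb were tested (adjusted p = 0.069) and with limma on unfiltered log2(FPKM + 1) (0.061). BST2 also missed the threshold with DESeq2's size factors (0.052) and in the 3 limma fits (0.097 to 0.20). In both FPM groups the share of antisense counts was raised, as given above, and TNFAIP3 overlaps an opposite-strand gene; the part of this in its FPM values was not tested. The pluripotent markers were lower in both FPM groups, and their part was not tested either. CCL2 has no opposite gene within 5 kb and BST2 lies within 5 kb of BISPR and MVB12A. At FPM IC50, CCL2 was at 40.2, 26.7 and 29.9 CPM (-0.20 ± 0.22) and BST2 at 41.5, 25.1 and 30.4 CPM (-0.53 ± 0.20, adjusted p = 0.10). The medians of the 41 genes were -0.03 at FPM IC50 and -0.04 at FPM IC25, against 0.01 and -0.00 for all genes.

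**Figure D3:**
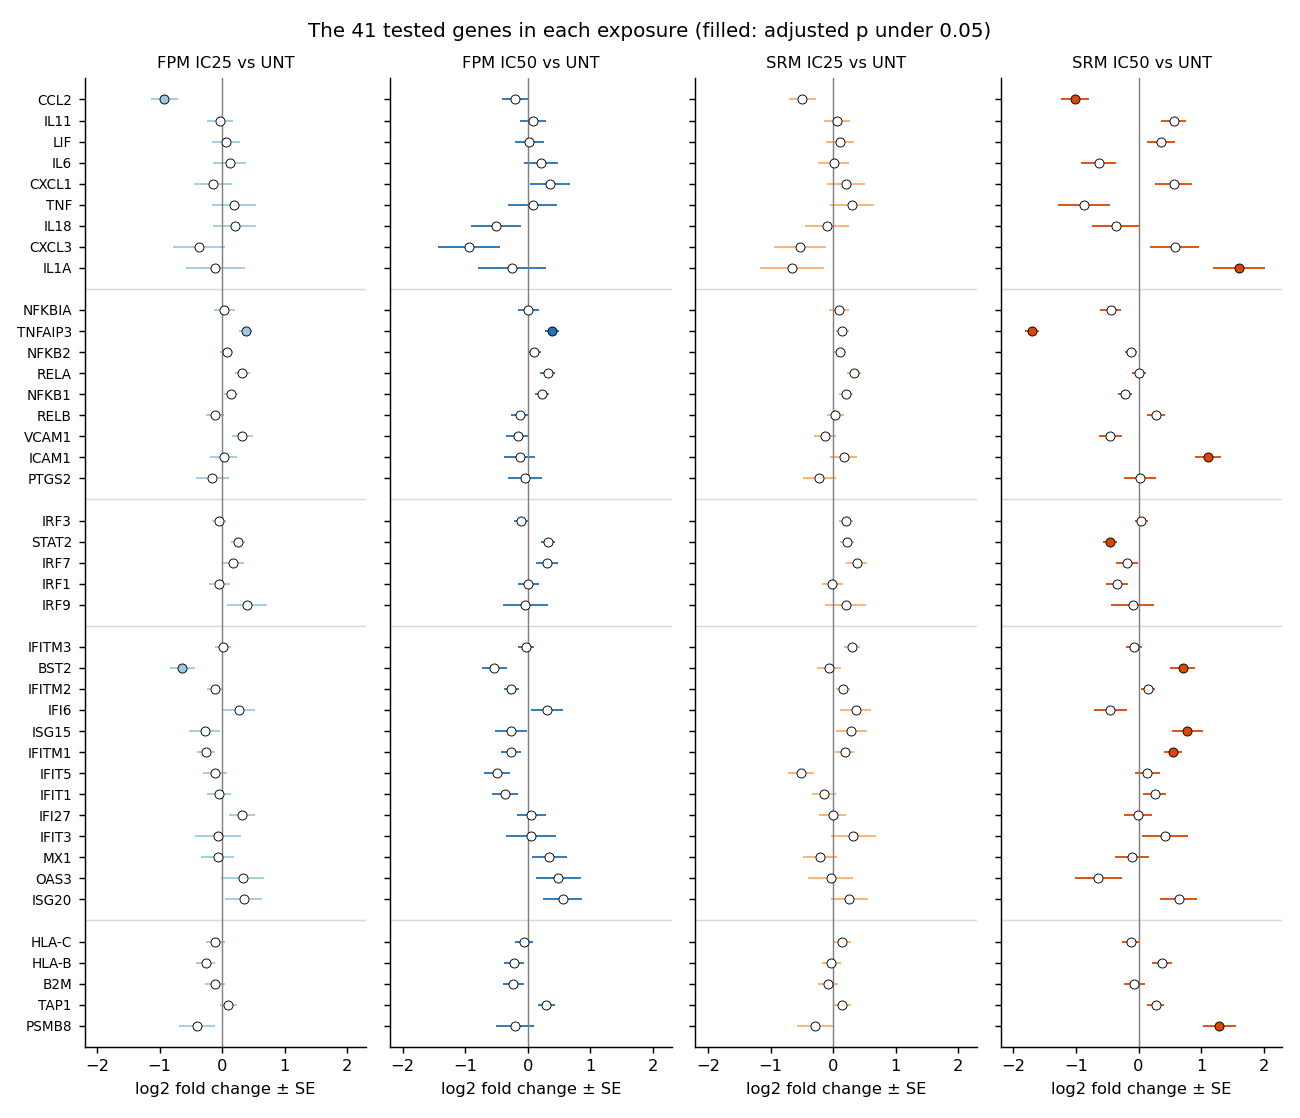
log2 fold change (x axis) with SE bars of the 41 tested genes in the 4 exposures, each against the same 3 UNT libraries; filled points have an adjusted p under 0.05 and grey lines separate the roles. SRM IC50 has 9 filled points, FPM IC25 has 3, FPM IC50 has 1 and SRM IC25 has none.

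IL6 in the FPM groups was 1.75, 2.13 and 1.66 CPM at IC25 and 1.85, 1.88 and 2.17 CPM at IC50, inside or just above the UNT range. PTGS2 was at 1.54, 2.41 and 2.29 CPM and at 1.36, 2.97 and 2.44 CPM in these groups. Neither gene passed against UNT in any exposure. All 4 of these comparisons use the same control libraries, so their values are set side by side without a test of likeness.

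Within SRM, 15 of 41 genes differed between the doses, 6 higher and 9 lower at IC50, where 26.9% of all genes differed. With a correction for GC content the split was 10 higher and 3 lower among 13 genes, which shifts the balance of directions. The count was 9 without the FPM libraries, and 7 without SRM IC25 replicate 2 or without SRM IC50 replicate 2. TNFAIP3 fell by 1.85 (SE 0.11, adjusted p = 1.5e-08), STAT2 by 0.67 (SE 0.11, adjusted p = 0.00035) and NFKB1, the precursor of the p50 subunit, by 0.42 (SE 0.12, adjusted p = 0.012). IL1A was higher by 2.27 ± 0.43, PSMB8 by 1.58 ± 0.27, ICAM1 by 0.94 ± 0.20 and BST2 by 0.77 ± 0.19 (adjusted p = 0.0010, 0.00036, 0.0026 and 0.0077). The calls of TNFAIP3, STAT2, IL1A, PSMB8, ICAM1 and BST2 held without any 1 of the 6 libraries, and that of NFKB1 was lost without SRM IC25 replicate 1 (adjusted p = 0.054). The other 8 calls had adjusted p between 0.021 and 0.049, and each was lost without 3 or more single libraries. These 8 and NFKB1 were also lost in at least 1 of the other settings, and the remaining 6 in none in which they were tested. Of these 6, only IL1A could be tested over genes without an opposite-strand gene within 5 kb. NFKBIA, IRF7, IFI6 and IFITM3, all lower, were lost without SRM IC25 replicate 2 or 3 or SRM IC50 replicate 1 or 2 (adjusted p up to 0.12, 0.11, 0.13 and 0.18). TNF, lower, was lost without SRM IC25 replicate 2 or SRM IC50 replicate 1 or 2 (up to 0.22). RELA, lower, and CXCL3, higher, were lost without any 1 SRM IC25 library or SRM IC50 replicate 2 or 3 (up to 0.12 and 0.19). IFIT5, higher, was lost without any 1 SRM IC25 library or SRM IC50 replicate 1 or 2 (up to 0.079). The amnion and trophoblast markers, which summed to 1944 to 2378 CPM at SRM IC25, and the pluripotent markers, at 1299 to 1378 CPM, moved with this comparison as well, with 14 of 14 tested lower and 9 of 10 higher at IC50. So did those of simple epithelium (8 lower), endothelium (3 higher, 1 lower) and mesenchyme (5 lower), and CSF1R (lower); their part was not tested. IFI6, for instance, was at 13.1, 16.8 and 16.2 CPM at IC25 and 6.48, 7.48 and 13.5 CPM at IC50, and replicate 3 of IC50 overlapped the lower dose. Within FPM, 0 of 41 genes differed between the doses by edgeR, and 0.0105% of all genes did. At an unadjusted p under 0.05 there were 2, and DESeq2 and limma called 0. CCL2 had the largest difference, 0.73 ± 0.22 higher at IC50 (adjusted p = 0.67). These fits were unpaired. With the replicate number as a block, edgeR called 0 of the 41 genes and 0.179% of all genes.

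Between the particles at IC50, 22 of 41 genes differed, 12 higher and 10 lower at SRM IC50, where 39.3% of all genes differed. The doses are those the labels call IC50 and were not the same concentration, 5.9 µg/mL for SRM and 1.4 µg/mL for FPM, so the particles and the concentrations cannot be told apart. TNFAIP3 was 4.27-fold lower at SRM IC50 (adjusted p = 9.6e-10). IL1A, CXCL3, RELB, ICAM1, IFIT1, IFIT5, ISG15, BST2, IFITM1, IFITM2, HLA-B and PSMB8 were higher at SRM IC50. IL6, CCL2, NFKB1, NFKBIA, RELA, TNFAIP3, IRF7, STAT2, IFI6 and OAS3 were lower. Interferon-stimulated genes made up 8 of the 22, with 6 higher and 2 lower, and the NF-κB genes made up 6, with 2 higher and 4 lower. The log2 difference was 1.24 ± 0.20 for BST2, 1.05 ± 0.25 for ISG15, 0.82 ± 0.15 for IFITM1, 0.60 ± 0.16 for HLA-B and 1.49 ± 0.28 for PSMB8, and each of these calls held without any 1 of the 6 libraries. HLA-B was at 44.9, 42.9 and 49.2 CPM at FPM IC50, under all SRM IC50 libraries. TNFAIP3, IL1A, ICAM1, CCL2, STAT2 and NFKB1 also kept their calls without any 1 library, which makes 11 of the 22. These 11 held in every other setting in which they were tested, and 9 of the other calls were lost in at least 1. Of the 11, only IL1A and CCL2 could be tested over genes without an opposite-strand gene within 5 kb. IL6 was lower by 0.85 (log2 difference -0.85, SE 0.29, adjusted p = 0.029). IL6 and IFIT5 were lost without FPM IC50 replicate 2 or 3 or SRM IC50 replicate 1 or 2 (adjusted p up to 0.11 for each). IFI6 was lost without FPM IC50 replicate 3 or SRM IC50 replicate 1 or 2 (0.15), and IFIT1 without FPM IC50 replicate 2 or SRM IC50 replicate 2 or 3 (0.14). OAS3 was lost without FPM IC50 replicate 2 or SRM IC50 replicate 1 or 3 (0.11), CXCL3 without FPM IC50 replicate 1 or SRM IC50 replicate 3 (0.059), and IFITM2 without FPM IC50 replicate 2 (0.064). Among the NF-κB genes, NFKBIA was lost without FPM IC50 replicate 1 or 3 or SRM IC50 replicate 1 or 2 (0.19). RELA was lost without FPM IC50 replicate 1 or 2 or SRM IC50 replicate 2 or 3 (0.18), and RELB without any 1 FPM IC50 library or SRM IC50 replicate 3 (0.15). IRF7 was lost without any 1 FPM IC50 library or SRM IC50 replicate 1 or 2 (0.17). The count was 14 without FPM IC50 replicate 2. The marker lists moved with this comparison too. All 14 tested amnion and trophoblast markers, which summed to 1939 to 2968 CPM at FPM IC50, and all 9 of simple epithelium were lower at SRM IC50, and 9 of 10 pluripotent markers were higher. Of the endothelial markers 4 were higher and 1 lower, of the mesenchyme markers 3 higher and 5 lower, and CSF1R was lower; the part of these lists was not tested. IL6 is among the genes whose exons overlap opposite-strand genes, and 11 of the 22 overlap the exons or lie in the body of one; the part of the higher antisense share of the FPM libraries was not tested.

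**Figure D4:**
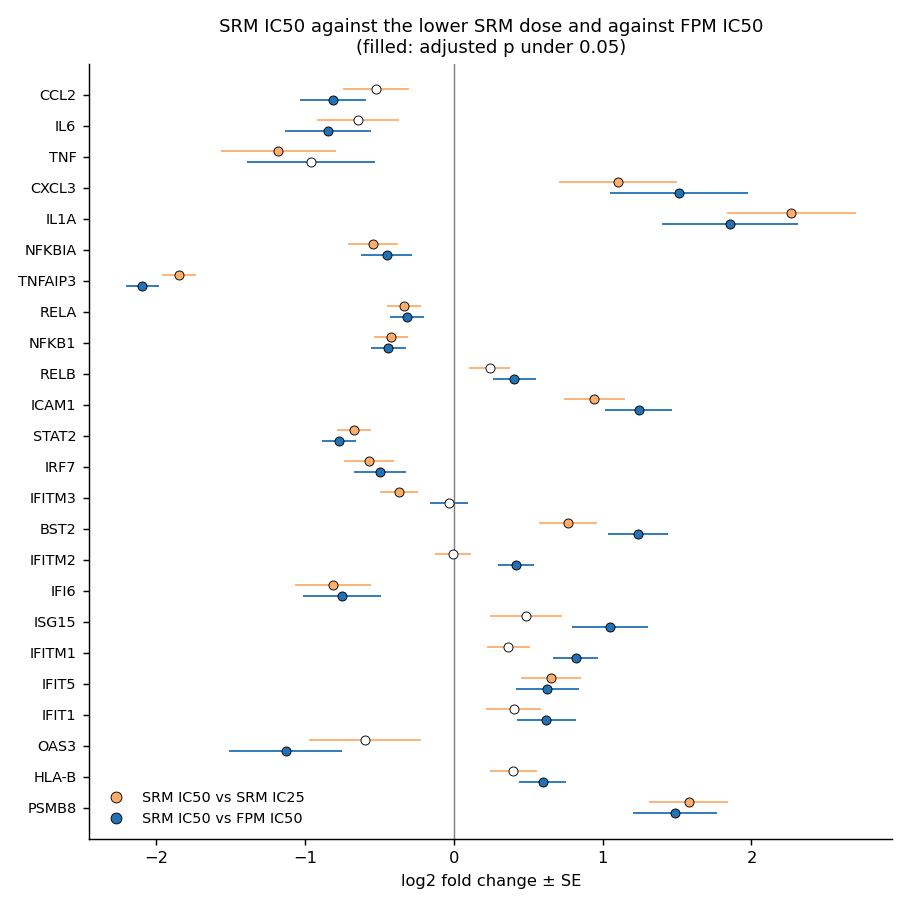
log2 fold change (x axis) with SE bars of 24 genes called in either comparison, for SRM IC50 against SRM IC25 (orange) and against FPM IC50 (blue); filled points have an adjusted p under 0.05. Both comparisons use the same SRM IC50 libraries; TNFAIP3 lies lowest in both, at -1.85 and -2.09.

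Other genes of these pathways were followed in 6 lists by role. At SRM IC50 against UNT, 26 of their 109 tested genes were called, beside 17.6% of all genes. Of 15 tested cytokine receptors 1 rose and 5 fell at SRM IC50 against UNT. The interleukin-1 receptor IL1R1 went from 15.7 ± 0.492 to 2.61 ± 0.0651 CPM (log2 fold change -2.58, adjusted p = 1.5e-08), and the TNF receptor TNFRSF1B from 8.26 ± 1.73 to 1.89 ± 0.289 CPM (-2.16, adjusted p = 3.1e-06). The LIF receptor LIFR fell by 1.05 and the interleukin-6 receptor IL6R rose by 1.44. The ligands IL1A and TNF are given above. Of 20 NF-κB signalling genes 3 rose and none fell: TNFAIP2 by 0.79, the kinase MAP3K14 by 0.43 and IRAK1 by 0.25. Of 13 tested nucleic acid sensors, IFIH1, a sensor of viral RNA, alone passed and fell by 1.37. Of 15 JAK-STAT genes 2 rose and 2 fell; USP18 and SOCS3, both feedback inhibitors, fell by 1.03 and 0.70, and STAT3 and SOCS2 rose by 0.42 and 0.35. Of 23 further interferon-stimulated genes tested, 4 rose and 4 fell. The antiviral TRIM22 went from 17.0 ± 1.04 to 42.9 ± 4.13 CPM (1.34, adjusted p = 2.0e-06) and SHFL rose by 1.33, while IFI16 and PLSCR1 fell by 0.79 and 0.69. Of 23 further antigen presentation genes tested 2 rose and 2 fell. Those named here are PSME3, a proteasome activator subunit, higher by 0.25, and CD274 and HLA-DRB1, lower by 1.76 and 0.61. At SRM IC25 the same lists gave 3 calls against UNT, beside 4.37% of all genes: IRAK1 (0.37), CHUK (-0.34) and HERC5 (-0.67). Of all genes, 0 were called in this comparison with the GC correction, with the 2 groups alone or without the FPM libraries. The same held without UNT replicate 2, SRM IC25 replicate 2 or SRM IC25 replicate 3, so these 3 calls were lost in those fits. In the FPM groups TNFRSF1B was higher, by 0.84 at IC50 and 0.58 at IC25, and 9 of the 109 tested genes were called at FPM IC50, 8 of them higher, with 8 called at FPM IC25. These counts lie under the shares of all genes called there, 13.6% and 14.2%. Both shares were unsteady. Once every gene close to a neighbour on the other strand was excluded, 4239 tested genes remained, and the shares were 0.0236% and 0.826%. A weaker response of these lists than of all genes therefore cannot be read from the counts.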

How the data were processed

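The authors deposited whole-number read counts per gene and FPKM values for 15 libraries; per the submitters' processing notes they used FastQC 0.11.7, HISAT2 2.2.1, SAMtools 1.10, featureCounts from Subread 2.0.15, DESeq2 and GRCh38. Not given in the sources used here are the annotation release, strand setting and handling of multiply mapped reads. The deposited FPKM equal the counts divided by the listed gene length and the library total, as checked on the files. RNA was polyadenylated and the library kit directional, per the labels' protocols.

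The test was edgeR 4.0.16 (R 4.3.3) on filterByExpr genes with TMM factors: 1 robust quasi-likelihood model of 5 group means over 15 libraries, 7 comparisons, and Benjamini-Hochberg adjustment over 19012 genes at 0.05. The procedure was also run on simulated counts with the same spread for every gene and no replicate or antisense effect. That run does not represent the variation of these libraries. CPM and FPKM are given as mean ± SD, and log2 fold changes with their standard error. Coordinates (1-based) and opposite-strand genes came from GENCODE 29 on GRCh38, promoter windows from RefSeq. The first bases transcribed after 36 of the 39 windows were found in a GENCODE transcript of the gene. Named genes were every member called against UNT plus a set of 16 central members whatever their p, and up to 4 called genes per wider list with the largest fold. Members and lists were chosen with earlier results of these data known, and 1 called gene of the wider lists is not reported here.

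No replicate pair fell within sampling noise (the lowest chi-square per gene was 5.42), and every library was used. Same-numbered libraries were counted as pairs where every pair's deviations correlated above 0.1. This held for FPM IC50 and FPM IC25 (r = 0.18, 0.21 and 0.26) and for no other comparison. In 3 others each r was above zero, among them SRM IC50 against UNT (0.38, 0.019 and 0.44). The main fit paired no libraries in any comparison, and pairs entered only through the replicate block named below. Alternatives were DESeq2 1.42.0, its size factors, no filter, a replicate block, a GC correction, genes without an opposite-strand gene within 5 kb, limma 3.58.1 on log2(FPKM + 1) or log2(FPKM + 0.1), 2 groups alone and each library left out. A fit without the 6 FPM libraries was chosen after seeing the data.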

Additional observations from a re-analysis of the deposited data

How the results depend on the processing

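No called gene reversed its direction in any alternative run. At SRM IC50 against UNT the main fit called 9 genes. Leaving out 1 library gave 6 to 9 calls, of which 5 to 8 were among those 9. Over genes without an opposite-strand gene within 5 kb, 11 of the 47 genes could be tested and 3 were called. Of these, 2 were among the 9 (IL1A and CCL2), and IL11 was added. That restriction gave 0 for FPM IC50 and 0 for FPM IC25 against UNT, 3 between the SRM doses and 4 between the particles. Of all 4239 genes tested there, 24.8% were called at SRM IC50, 0.0236% at FPM IC50 and 0.826% at FPM IC25 against UNT. The share was 32.3% between the SRM doses and 34.3% between the particles. Without the low-count filter 12 genes were called at SRM IC50 against UNT (NFKBIA, IFI6 and HLA-B added), 1 gene at SRM IC25 (CCL2), 2 at FPM IC50 and 1 between the FPM doses (CCL2). The shares of all genes were 8.12% at SRM IC50, 1.95% at SRM IC25, 8.5% at FPM IC50 and 0.285% between the FPM doses. DESeq2 called 1 at SRM IC25 and 2 at FPM IC50, beside 16.2% and 11.6% of all genes. limma on unfiltered log2(FPKM + 1) called 1 at FPM IC25 and 7 between the SRM doses, and the fit without FPM libraries called 9 there. Of all genes, limma called 6.18% and 8.61%, and the fit without FPM libraries called 25.8%. Leaving out 1 library gave 0 to 2 genes at FPM IC50, 1 to 3 at FPM IC25, 7 to 15 between the SRM doses and 14 to 18 between the particles. The shares of all genes in these fits were 10.8 to 16%, 10.6 to 15.8%, 19.3 to 26.2% and 32.8 to 37.5%. For SRM IC50 against UNT the share was 12.8 to 17.3%.

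In the comparisons other than that of the FPM doses, 3 to 5 of 6 libraries correlated best with their own replicate number. With the number as a block there, 2 genes were called at SRM IC25 (RELA and IFITM3), 5 at FPM IC50 and 5 at FPM IC25; SRM IC50 against UNT had 13 (IL11, NFKBIA, IFI6 and HLA-B added), the SRM doses 21 and the particles 23. The block raised the calls over all genes as well, to 14.3% at SRM IC25, 19.2% at FPM IC50, 21.5% at FPM IC25 and 23.1% at SRM IC50 against UNT, 35.1% between the SRM doses and 46.9% between the particles. In the paired FPM dose comparison the block left 0 genes called, with 34 of all genes in place of 2. Where alternatives end a call the cause was not tested, except that fewer genes or libraries enter some fits. The 6 genes that did not pass the filter had at most 18 counts in a library.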

Other observations

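Genes of class II presentation and of the T cell checkpoint are given here in some of the groups. In the account above, CD274 and HLA-DRB1 were named only for SRM IC50 against UNT. CIITA, the master activator of class II genes, was at 0.0399 ± 0.0346 CPM in UNT, 4.53 ± 1.51 CPM at FPM IC25 and 5.38 ± 1.26 CPM at FPM IC50 (mean ± SD, n = 3), and at 0.0807 and 0.0113 CPM in the SRM groups. HLA-DRB1 and CD74, the invariant chain, are known targets of CIITA and did not pass at either FPM dose. HLA-DRB1 was at 16.5 ± 3.98 CPM in UNT and 14.4 ± 2.83 CPM at FPM IC50, and CD74 at 31.6 ± 1.06 and 32.3 ± 3.16 CPM. The exons of CIITA overlap opposite-strand genes, and antisense genes took more of the counts in the FPM libraries than in the others; their part was not tested. CD274, which encodes the checkpoint ligand PD-L1 and has no opposite gene within 5 kb, was at 2.12 ± 0.251 CPM in UNT, 3.71 ± 0.342 CPM at FPM IC50 (edgeR adjusted p = 0.012) and 0.605 ± 0.0754 CPM at SRM IC50 (adjusted p = 0.00010). All 3 CD274 libraries at SRM IC50 lay below, and all 3 at FPM IC50 above, every control. Over genes without an opposite-strand gene within 5 kb, 1 of 4239 passed at FPM IC50. The result of CD274 in that fit and with single libraries left out is not given here.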
